A study of Mus musculus with 9 samples.

Results

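Oxidative phosphorylation complexes II to V are built in part from nuclear genes, and 57 of them were followed in RNA sequencing of the mouse left ventricle after myocardial infarction (MI). They were chosen by symbol alone: Sdha to Sdhd, Sdhaf, Uqcr, Uqcc, Cox followed by a digit, and Atp5, without symbols ending in a pseudogene tag and without 8 isoform genes of complex IV (Cox4i1, Cox4i2, Cox6a1, Cox6a2, Cox7a1, Cox7a2, Cox8a and Cox8b). Of 55367 symbols in the table, 57 met this rule, and 52 of these were among the 15138 genes with enough counts to be tested. The other 5 held at most 9 counts in any library: Cox16, the testis isoforms Cox8c and Cox7b2, and Cox6c2 and Cox20b, which the GENCODE M21 annotation lists as processed pseudogenes. Each of the 52 tested had at least 13 counts in every library, so none passed the filter on low counts through 1 group alone.

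The 3 groups were MI+BPD, MI and Sham, with 3 libraries each. In MI+BPD the infarcted mice received an agent that the labels call BPD, without spelling it out, aimed at the proliferative phase of healing; the sources used here give neither its dose nor its schedule. MI mice had the infarct without that treatment, and Sham mice had the sham operation. The infarcted tissue was taken at day 14 and holds the infarct core with the zone around it, a region that Sham hearts do not have; Sham carries no day of its own in the labels. The sources used here give no strain, sex or age and no surgical method, and the labels do not say whether each library is a separate animal, so p-values measure the spread between these libraries.

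Complex II (succinate dehydrogenase) feeds electrons from the citric acid cycle into ubiquinone, complex III (cytochrome bc1) passes them to cytochrome c, complex IV (cytochrome c oxidase) hands them to oxygen, and complex V (ATP synthase) uses the proton gradient to make ATP. Complex II is encoded in the nucleus alone, whereas complexes III, IV and V combine nuclear subunits with subunits encoded in mitochondrial DNA. Assembly factors insert heme, copper and iron-sulfur clusters or hold subunits in place and do not remain in the finished enzyme. Heart muscle is densely packed with mitochondria and draws most of its ATP from this system. The transcription factors NRF1 and GABP (an ETS family protein also called NRF2), YY1 and the estrogen-related receptors (ERR) are known to drive many of these genes, with the coactivator PGC-1alpha.

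Promoter windows were available for 45 of the 57 members, from RefSeq on GRCm38.p6, and were read over the 250 bases before the annotated start. Both strands were searched for GCGCA followed by any base and then GCGC (NRF1), CCGGAAG (GABP and other ETS proteins), AANATGGC (YY1) and TCAAGGTCA (ERR). The NRF1 letters stood in 7 of 45 member windows (15.6%), against 4.23% of the windows of all 27025 genes. For GABP the share was 13 of 45 (28.9%), against 7.83% of all genes. YY1 letters were in 3 of 45 (6.67%), against 4.49%, and ERR letters in 1 of 45 (2.22%), against 0.422%. The 27025 genes take in many that were not among the 15138 tested here, and the windows were not matched for base content. Whether these shares differ from those of like promoters was not tested. A match is a run of letters and not a shown binding site, and the absence of a match says nothing about a factor.

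The windows below show how these letters are spread over genes that were all called lower in MI hearts than in Sham hearts. Sdha (chr13:74350241-74350490) and Sdhd (chr9:50603850-50604099) encode the flavoprotein and a membrane anchor of complex II. Atp5g1 (chr11:96075632-96075881), Atp5g2 (chr15:102671048-102671297) and Atp5g3 (chr2:73911327-73911576) encode the same mature c subunit of the ATP synthase ring. All 5 genes are on the minus strand, each window is printed 5′ to 3′ on the gene's strand, and capitals mark the letters searched for on either strand.
Sdha: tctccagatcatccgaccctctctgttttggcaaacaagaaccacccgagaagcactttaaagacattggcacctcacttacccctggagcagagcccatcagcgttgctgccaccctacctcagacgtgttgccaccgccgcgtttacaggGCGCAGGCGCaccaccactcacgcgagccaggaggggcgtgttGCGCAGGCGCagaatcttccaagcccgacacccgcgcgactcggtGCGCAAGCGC
Sdhd: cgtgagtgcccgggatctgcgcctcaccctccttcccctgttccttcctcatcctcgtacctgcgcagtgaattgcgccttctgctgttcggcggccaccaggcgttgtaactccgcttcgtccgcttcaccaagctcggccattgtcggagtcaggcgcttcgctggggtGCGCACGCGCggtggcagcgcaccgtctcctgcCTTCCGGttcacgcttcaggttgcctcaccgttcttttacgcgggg
Atp5g1: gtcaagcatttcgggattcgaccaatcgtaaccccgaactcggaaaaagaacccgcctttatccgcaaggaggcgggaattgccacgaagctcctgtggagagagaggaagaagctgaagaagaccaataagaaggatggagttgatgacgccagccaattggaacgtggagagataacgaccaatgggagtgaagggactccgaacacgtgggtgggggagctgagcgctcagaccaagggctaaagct
Atp5g2: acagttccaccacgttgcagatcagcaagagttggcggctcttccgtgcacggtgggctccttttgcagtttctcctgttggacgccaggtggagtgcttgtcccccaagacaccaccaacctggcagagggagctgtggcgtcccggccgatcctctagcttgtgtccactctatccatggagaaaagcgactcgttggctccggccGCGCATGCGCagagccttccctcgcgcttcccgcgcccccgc
Atp5g3: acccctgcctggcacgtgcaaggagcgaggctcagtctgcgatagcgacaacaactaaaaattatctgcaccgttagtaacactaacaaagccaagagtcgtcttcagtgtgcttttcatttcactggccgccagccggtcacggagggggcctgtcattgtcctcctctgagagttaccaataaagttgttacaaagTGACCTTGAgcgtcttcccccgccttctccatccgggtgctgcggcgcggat

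Counted back from the base before the start, Sdha held the NRF1 letters at -98 to -89, -55 to -46 and -10 to -1. Sdhd held them at -79 to -70 and the ETS letters, on the other strand, at -46 to -40. Atp5g2 held the NRF1 letters at -42 to -33, where they read the same on both strands, Atp5g3 held the ERR letters at -52 to -44 on the other strand, and Atp5g1 held none of the 4. Among tested members, the median log2 change in MI against Sham was -1.64 for the 7 with the NRF1 letters and -1.65 for the 36 without. It was -1.61 for the 12 with the ETS letters and -1.75 for the 31 without. For the 3 with the YY1 letters it was -1.12, against -1.65 for the 40 without, and the 1 gene with the ERR letters had -1.81, against -1.64 for the 42 without. These medians were not tested.

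Total counts were 17006222 to 17424302 per MI+BPD library, 19101748 to 19269072 per MI library and 14451410 to 17703461 per Sham library. Values below are read counts relative to library size (CPM), scaled with trimmed mean of M values (TMM) factors, which hold the bulk of genes level between libraries, and log2 changes are fitted by edgeR with a standard error (SE). Transcripts of 26 cardiomyocyte marker genes, all detected in every group, summed to 41680 to 53050 CPM in MI+BPD, 28400 to 47020 CPM in MI and 86020 to 90210 CPM in Sham. Those of 12 fibroblast markers summed to 22280 to 24260 CPM in MI+BPD, 16810 to 23850 CPM in MI and 1939 to 2250 CPM in Sham. Macrophage markers (12) summed to 1102 to 1446 CPM in MI+BPD, 869.8 to 1476 CPM in MI and 411.3 to 490.2 CPM in Sham. In bulk tissue, fewer heart muscle cells and less RNA per heart muscle cell cannot be told apart. This holds for every comparison with Sham and also for MI+BPD against MI. Libraries also stood apart within groups: the mismatch of counts between libraries of a group (chi-square per degree of freedom) was 3.66 to 5.11 in Sham, but 66.3 and 86.0 for MI 3 against the other MI libraries and 68.0 and 75.3 for MI+BPD 1 against the other MI+BPD libraries.

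In MI hearts the nuclear genes of complexes II to V fell together. Of the 52 tested members, 49 were lower in MI than in Sham, none was higher, and 3 did not pass (edgeR quasi-likelihood test, Benjamini-Hochberg adjusted p under 0.05 over all genes). Over all genes tested, 31.9% were called lower and 37.0% higher. The median log2 change of the members was -1.66, against 0.07 for all genes. Every MI library lay below every Sham library for 49 of the 52, against 34.3% of all genes. The members' summed share of the counts that fall on nuclear genes was 1.08%, 1.17% and 1.77% in MI and 3.52%, 3.67% and 3.78% in Sham.

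**Figure D1:**
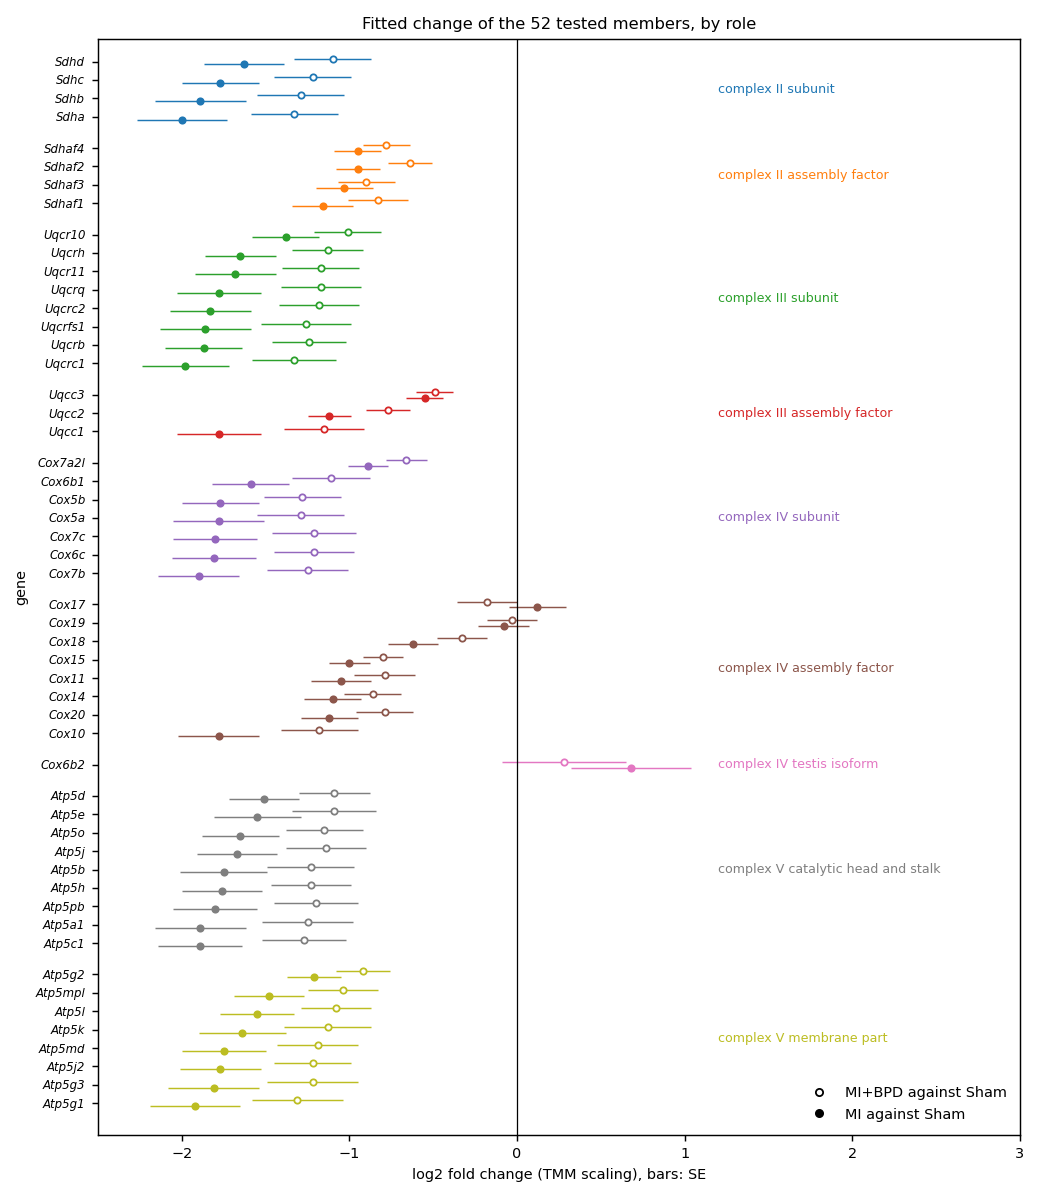
Fitted log2 change of each of the 52 tested genes (x axis, TMM scaling, bars are the SE), with genes on the y axis grouped by role; open circles are MI+BPD against Sham and filled circles MI against Sham. The 35 structural subunits lie between -2.0 and -1.21 in MI against Sham, whereas the complex IV factors Cox17 and Cox19 and the testis isoform Cox6b2 lie near or above 0. Cox7a2l, drawn with the complex IV subunits but not counted among the 35, lies at -0.89.

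Structural subunits changed more evenly than assembly factors. All 35 structural subunits were lower in MI than in Sham, with a median log2 change of -1.77 and a range of -2.0 to -1.21. Of 15 tested assembly factors 13 were lower, with a median of -1.03 and a range of -1.78 to 0.12. By complex, the median for structural subunits was -1.83 for complex II (4 of 4 lower), -1.80 for complex III (8 of 8), -1.75 for the catalytic head and stalks of complex V (9 of 9) and -1.69 for its membrane part (8 of 8). For complex IV it was -1.78 over 7 genes, all lower, a count that takes in the supercomplex factor Cox7a2l beside 6 subunits. Cox7a2l, at -0.89, is not among the 35 structural subunits. For assembly factors the median was -0.99 in complex II (4 of 4 lower), -1.12 in complex III (3 of 3) and -1.02 in complex IV (6 of 8).

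Complex II has 4 subunits. Sdha, the flavoprotein that oxidises succinate, stood at 975, 575 and 588 CPM in MI+BPD, 364, 375 and 610 CPM in MI, and 1741, 1819 and 1830 CPM in Sham. Its log2 change in MI against Sham was -2.0 ± 0.27 (SE; edgeR adjusted p = 1.98e-04), the most negative of the 52 members. All 3 MI libraries were below all Sham libraries, MI 3 was the highest MI library, and MI+BPD 1 was the highest of the 6 infarct libraries. Sdhb, the iron-sulfur subunit, had 374, 240 and 237 CPM in MI+BPD, 137, 160 and 264 CPM in MI, and 670, 691 and 716 CPM in Sham, a log2 change of -1.89 ± 0.27 in MI against Sham (edgeR adjusted p = 2.38e-04).

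The membrane anchors Sdhc and Sdhd, which hold heme b and the ubiquinone site, followed the same order of libraries. Sdhc had 273, 175 and 179 CPM in MI+BPD, 111, 129 and 190 CPM in MI, and 467, 485 and 510 CPM in Sham (MI against Sham -1.77 ± 0.23, edgeR adjusted p = 1.70e-04). Sdhd had 255, 166 and 169 CPM in MI+BPD, 104, 121 and 185 CPM in MI, and 395, 421 and 453 CPM in Sham (-1.63 ± 0.24, edgeR adjusted p = 2.77e-04). For all 4 subunits MI 3 lay above MI+BPD 2 and MI+BPD 3, so that the MI+BPD and MI groups overlapped, and all 6 infarct libraries lay below Sham.

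The 4 complex II assembly factors were all called lower in MI than in Sham, by -1.16 to -0.95 on the log2 scale, but with library totals in place of TMM factors Sdhaf3 (-0.31, edgeR adjusted p = 0.0583) and Sdhaf4 (-0.23, edgeR adjusted p = 0.084) did not pass, and with a scaling that holds the geometric mean of the cardiomyocyte marker counts even all 4 were fitted above 0 (0.12 to 0.33) without passing. Sdhaf1, which guides iron-sulfur insertion into Sdhb, had 10.4, 7.29 and 7.77 CPM in MI+BPD, 5.86, 5.99 and 8.28 CPM in MI, and 14.0, 14.2 and 16.9 CPM in Sham (MI against Sham -1.16 ± 0.18, edgeR adjusted p = 3.99e-04). Sdhaf4, a chaperone of the flavoprotein, had 18.1, 15.7 and 14.9 CPM in MI+BPD, 11.4, 14.5 and 17.3 CPM in MI, and 27.9, 28 and 27.5 CPM in Sham (-0.95 ± 0.14, edgeR adjusted p = 3.41e-04). Both infarct groups lay below Sham without overlap for both genes. Sdhaf2, which helps to insert the flavin, and Sdhaf3, a second iron-sulfur factor, changed by -0.95 and -1.03. In the annotation 69.6% of the exon bases of Sdhaf1 lie opposite E130208F15Rik, a gene with 4 to 12 counts per library.

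In complex III, the core protein Uqcrc1 fell most and the small subunit Uqcr10 least. Uqcrc1 had 554, 346 and 354 CPM in MI+BPD, 211, 221 and 368 CPM in MI, and 1010, 1044 and 1108 CPM in Sham (MI against Sham -1.98 ± 0.26, edgeR adjusted p = 1.72e-04). Uqcr10 had 157, 118 and 117 CPM in MI+BPD, 75, 93.2 and 134 CPM in MI, and 252, 267 and 267 CPM in Sham (-1.38 ± 0.20, edgeR adjusted p = 3.01e-04). Neither infarct group overlapped Sham. The other 6 subunits, among them the Rieske iron-sulfur protein Uqcrfs1 at -1.86, the second core protein Uqcrc2 at -1.83 and the hinge protein Uqcrh at -1.65, lay between these values.

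The complex III assembly factors, which act on cytochrome b, spread widely. Uqcc1 had 132, 86.8 and 78.7 CPM in MI+BPD, 49.0, 54.9 and 87.5 CPM in MI, and 213, 211 and 234 CPM in Sham (MI against Sham -1.78 ± 0.25, edgeR adjusted p = 2.21e-04), a change within the range of the structural subunits. Uqcc3 had 17.3, 15.6 and 16.7 CPM in MI+BPD, 13.3, 17.3 and 16.8 CPM in MI, and 23.6, 23.0 and 22.8 CPM in Sham (-0.55 ± 0.11, edgeR adjusted p = 0.00151). Both fell below Sham without overlap, Uqcc3 by the least of the 49 members called. Uqcc2 lay between them at -1.12. The direction of Uqcc3 is tied to the scaling: with library totals in place of TMM factors it was 0.18 (adjusted p = 0.157).

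Complex IV held the widest spread. Cox7b, a nuclear subunit, had 398, 274 and 273 CPM in MI+BPD, 149, 179 and 273 CPM in MI, and 709, 737 and 797 CPM in Sham (MI against Sham -1.90 ± 0.24, edgeR adjusted p = 1.46e-04). Cox6c, Cox7c, Cox5a, Cox5b and Cox6b1 followed with log2 changes of -1.81, -1.80, -1.78, -1.77 and -1.59. Cox7a2l, related to subunit 7a and known for joining complexes III and IV into supercomplexes, had 142, 124 and 121 CPM in MI+BPD, 96.9, 105 and 128 CPM in MI, and 198, 197 and 216 CPM in Sham (-0.89 ± 0.12, edgeR adjusted p = 1.87e-04). Its groups did not overlap with Sham, and its change lay closer to the assembly factors' median of -1.03 than to the structural subunits' median of -1.77. With library totals Cox7a2l did not pass at -0.16 (edgeR adjusted p = 0.109), and with the scaling on cardiomyocyte markers it was called higher by 0.41 (edgeR adjusted p = 0.0335).

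The complex IV assembly factors ran from a fall like that of the subunits to no detected change. Cox10, the heme O synthase, had 38.8, 28.4 and 25.7 CPM in MI+BPD, 15.4, 16.9 and 29.1 CPM in MI, and 67.0, 71.9 and 71.7 CPM in Sham (MI against Sham -1.78 ± 0.24, edgeR adjusted p = 1.87e-04). Cox15, the heme A synthase that acts on the product of Cox10, changed by -1.0, Cox11, a copper insertion factor, by -1.05, Cox14 and Cox20, which handle subunits 1 and 2, by -1.10 and -1.12, and Cox18, which inserts subunit 2 into the membrane, by -0.62. These 6 genes were all called lower in MI; with library totals Cox18 stood at 0.11 (edgeR adjusted p = 0.504), and with the scaling on cardiomyocyte markers Cox11, Cox14, Cox15, Cox18 and Cox20 were fitted above 0. In the annotation 83.2% of the exon bases of Cox20 lie opposite Hnrnpu, with 2982 to 7682 counts per library beside 482 to 734 of Cox20, and 48.3% of those of Cox11 opposite Tom1l1, with 208 to 334 counts beside 206 to 297 of Cox11; smaller shares of Cox5a (41.7%, Gm26631) and Uqcrc2 (26.6%, Pdzd9) also lie opposite another gene. Among further overlaps of this kind are Atp5l (24.4%, Gm30934), Atp5o (19.6%, D430001F17Rik) and Sdhaf4 (16.3%, Gm26524). Atp5o also shares 29.0% of its exon bases on the same strand with another entry of that name. The strand setting of the counts is not given, so reads of such pairs cannot be told apart.

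The copper factors Cox17 and Cox19 did not pass. Cox17, the chaperone that brings copper to complex IV, had 6.17, 4.67 and 4.42 CPM in MI+BPD, 5.31, 7.25 and 6.17 CPM in MI, and 5.67, 5.34 and 6.25 CPM in Sham; the log2 change in MI against Sham was 0.12 ± 0.17 (edgeR adjusted p = 0.575). Cox19, a related copper handling protein, had 36.2, 34.8 and 31.7 CPM in MI+BPD, 26.1, 32.2 and 40.6 CPM in MI, and 32.8, 33.6 and 38.0 CPM in Sham (-0.08 ± 0.15, edgeR adjusted p = 0.631). The libraries of all 3 groups overlapped for both genes. With library totals in place of TMM factors both were called higher in MI than in Sham, Cox17 by 0.85 (edgeR adjusted p = 8.79e-04) and Cox19 by 0.64 (edgeR adjusted p = 5.65e-04).

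With that scaling the median log2 change of all genes is 0.81 in place of 0.07, and that of the members -0.95 in place of -1.66, and 44 of 52 were called lower in MI, against 11.7% of all genes. Relative to all genes the members' median is -1.74 with TMM factors and -1.76 with library totals. Library totals take in the mitochondrially encoded genes, whose share of the counts differed between groups. It was 17.6 to 25.7% in MI+BPD, 11.4 to 18.2% in MI and 34.4 to 35.2% in Sham. A nuclear gene scaled by library totals is therefore set against unlike totals, and calls that appear with library totals alone carry this limit. The scaling on cardiomyocyte markers moves the median of all genes to 1.40 and that of the members to -0.42. With it 29 of 52 members were still called lower in MI than in Sham, against 4.10% of all genes, and 6 were called higher: Cox17, Cox19, Cox18, Cox6b2, Uqcc3 and Cox7a2l. Of the 35 structural subunits 27 were called lower and none higher on that scale, with a median of -0.52. Of the 15 assembly factors 2 were called lower and 4 higher, with a median of 0.25.

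A ratio within each library does not depend on the scaling. Per 1000 reads of 6 complex IV subunits (Cox5a, Cox5b, Cox6b1, Cox6c, Cox7b and Cox7c), Cox17 had 2.72, 3.05 and 2.88 reads in MI+BPD, 5.97, 6.69 and 3.73 reads in MI, and 1.45, 1.26 and 1.46 reads in Sham. Cox19 had 16, 22.7 and 20.7 reads in MI+BPD, 29.3, 29.7 and 24.5 reads in MI, and 8.42, 7.96 and 8.86 reads in Sham. For both genes MI was highest, MI+BPD between and Sham lowest, without overlap but with MI 3 close to MI+BPD 2. The 6 subunits themselves changed by -1.90 to -1.59 in MI against Sham, beside a median of 0.07 for all genes. Any gene that fell less than they did rises in this ratio. How many of all genes separate the groups in this ratio was not counted. Cox7a2l averaged 74.2 ± 10.1 reads in MI+BPD, 94.7 ± 15.9 reads in MI and 49.2 ± 2.25 reads in Sham (SD, n = 3 each), and its MI+BPD and MI libraries overlapped.

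Cox10 stood in a like ratio to the subunits in all groups, at 17.5 ± 0.968 reads in MI+BPD, 16.8 ± 1.11 reads in MI and 17.0 ± 0.237 reads in Sham (SD, n = 3 each). Cox15, which acts next in the same heme pathway, averaged 18.0 ± 2.44 reads in MI+BPD, 23.5 ± 4.24 reads in MI and 13.2 ± 0.679 reads in Sham. The Cox15 libraries of each infarct group lay above all Sham libraries, and so did those of Cox11, Cox14, Cox18 and Cox20. All of these genes fell less than the subunits they are divided by, so their ratios rise. The median log2 change of all genes in MI against Sham was 0.07, so a rise in this ratio does not set these factors apart. The share of all genes that separate from Sham in this way was not counted. The Cox10 libraries of the 3 groups overlapped. These ratios show unequal change between genes of one library, were singled out with the values known, and were not tested.

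**Figure D2:**
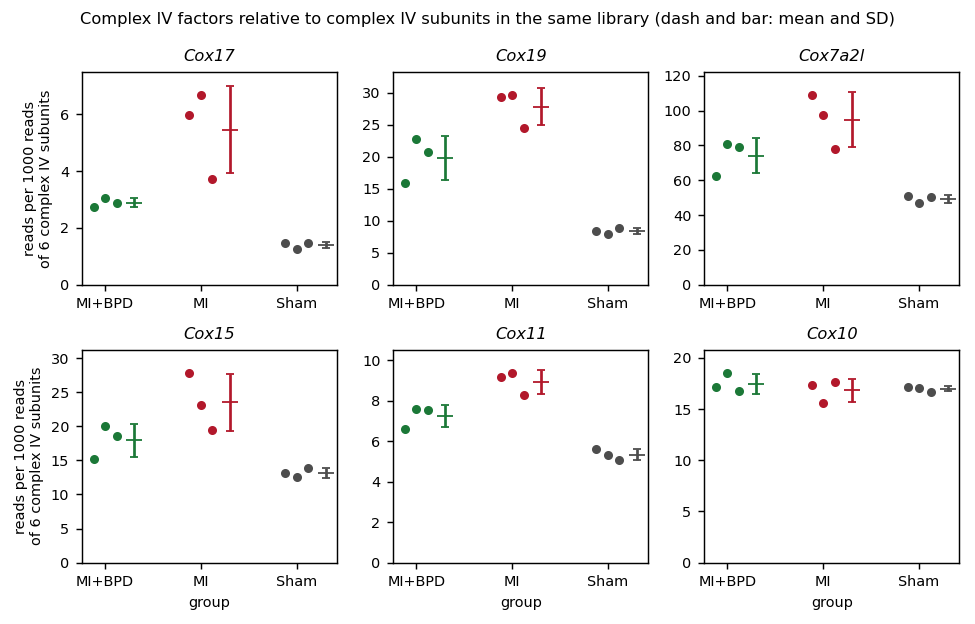
Reads of 6 genes per 1000 reads of 6 complex IV subunits (y axis, from 0) in each MI+BPD, MI and Sham library (points), with the group mean and SD (dash and bar, n = 3). Cox17 and Cox19 are highest in MI and lowest in Sham, with MI 3 close to MI+BPD 2, and Cox10 stays between 15.6 and 18.6 in all 9 libraries.

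Cox6b2, a form of subunit 6b known from testis, was the member with the highest fitted change in MI against Sham. It had 1.32, 1.18 and 2.39 CPM in MI+BPD, 2.10, 2.93 and 1.43 CPM in MI, and 1.19, 1.23 and 1.60 CPM in Sham, which is 13 to 72 counts per library. The log2 change in MI against Sham was 0.68 ± 0.36 (edgeR adjusted p = 0.122), and the groups overlapped. It passed with limma-voom (adjusted p = 0.0274), without MI 3 (edgeR adjusted p = 0.0468), with library totals (1.43, edgeR adjusted p = 0.00683) and with the scaling on cardiomyocyte markers (2.06, edgeR adjusted p = 0.00107). Of 8 testis germ cell markers, 5 were at 0 counts in MI+BPD, 6 in MI and 4 in Sham, and their sum was at most 1.05 CPM in any library. The other testis isoforms, Cox8c and Cox7b2, had no count in any library and at most 3 counts per library.

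In complex V, the gamma subunit Atp5c1, the shaft that turns inside the catalytic head, fell most among the head and stalk genes and the delta subunit Atp5d of the same central stalk least. Atp5c1 had 748, 511 and 505 CPM in MI+BPD, 301, 313 and 530 CPM in MI, and 1322, 1411 and 1512 CPM in Sham (MI against Sham -1.89 ± 0.25, edgeR adjusted p = 1.91e-04). Atp5d had 207, 130 and 139 CPM in MI+BPD, 92.5, 115 and 150 CPM in MI, and 316, 341 and 358 CPM in Sham (-1.51 ± 0.21, edgeR adjusted p = 2.45e-04). No infarct library reached the Sham range for either gene. The alpha and beta subunits of the head, Atp5a1 and Atp5b, changed by -1.89 and -1.75, and the stator proteins Atp5pb (b), Atp5h (d), Atp5j (F6) and Atp5o (OSCP) by -1.80, -1.76, -1.67 and -1.65. The epsilon subunit Atp5e of the central stalk changed by -1.55. In the membrane part, the subunits Atp5j2, Atp5k, Atp5l, Atp5md and Atp5mpl changed by -1.77, -1.64, -1.55, -1.75 and -1.48.

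The c ring of ATP synthase is built from 1 mature protein that 3 genes encode with different import sequences. Atp5g1 had 466, 309 and 302 CPM in MI+BPD, 171, 196 and 338 CPM in MI, and 860, 879 and 927 CPM in Sham (MI against Sham -1.92 ± 0.27, edgeR adjusted p = 2.45e-04). Atp5g2 had 92.1, 70.8 and 66.9 CPM in MI+BPD, 53.2, 56.9 and 77.4 CPM in MI, and 135, 143 and 157 CPM in Sham (-1.21 ± 0.16, edgeR adjusted p = 2.02e-04), the smallest change of any structural subunit. Atp5g3 had 745, 458 and 475 CPM in MI+BPD, 279, 324 and 517 CPM in MI, and 1187, 1341 and 1394 CPM in Sham (-1.81 ± 0.27, edgeR adjusted p = 3.21e-04). All 3 genes were below Sham in every infarct library, and MI 3 overlapped the MI+BPD range in each.

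The division of the c subunit's counts between its 3 genes was compared as shares. Of the summed counts, 12717 to 32499 per library, Atp5g2 took 7.06% (95% exact binomial interval 6.73 to 7.41), 8.45% (8.03 to 8.89) and 7.93% (7.52 to 8.35) in MI+BPD. It took 10.6% (10.04 to 11.1), 9.88% (9.39 to 10.4) and 8.30% (7.93 to 8.69) in MI. In Sham it took 6.18% (5.88 to 6.49), 6.03% (5.75 to 6.32) and 6.34% (6.08 to 6.61). Every infarct library lay above every Sham library, and MI 3 fell inside the MI+BPD range.

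The mean share of Atp5g2 was 9.58% ± 1.16 in MI and 6.18% ± 0.154 in Sham (SD, n = 3 each; 2-sided exact permutation p = 0.1, the smallest that 3 against 3 can give; 0.225 after adjustment over 9 tests). The share of Atp5g1 was 34.7% ± 1.32 in MI and 38.0% ± 1.23 in Sham (SD, n = 3 each; exact permutation p = 0.1, adjusted 0.225), again without overlap. Atp5g3 had 55.7% ± 0.444 in MI and 55.8% ± 1.25 in Sham (SD, n = 3 each; exact permutation p = 0.9). MI+BPD lay between for both genes, at 7.81% ± 0.699 for Atp5g2 and 36.1% ± 0.628 for Atp5g1; against MI the exact permutation p was 0.2 and 0.3. None of these can reach 0.05 in this design, the shares are not corrected for transcript length, and the intervals cover counting error only.

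**Figure D3:**
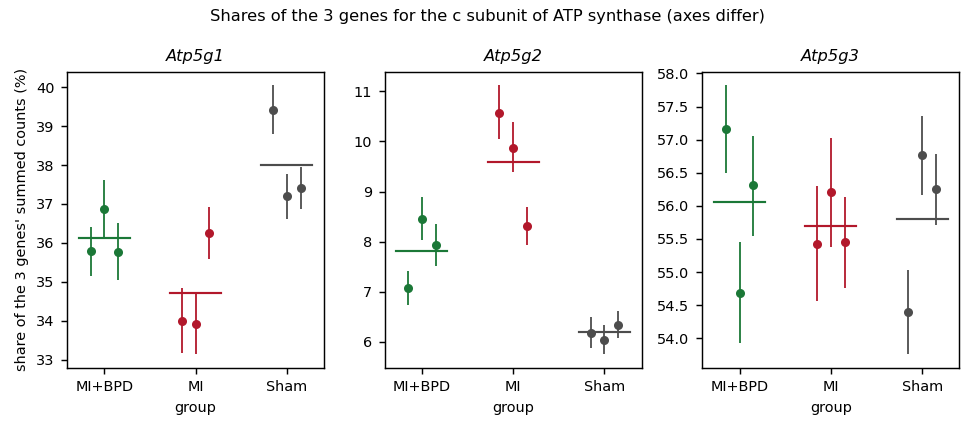
Share of Atp5g1, Atp5g2 and Atp5g3 in their summed counts (y axis, percent, with a different range in each panel that does not start at 0) in each MI+BPD, MI and Sham library; points carry 95% exact binomial intervals and the dash is the group mean. Atp5g2 takes 8.30 to 10.6% in MI and 6.03 to 6.34% in Sham, Atp5g1 takes more in Sham, and Atp5g3 overlaps in all groups.

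Genes outside the rule moved on a similar scale. Of 36 complex I subunits 35 were lower in MI than in Sham, with a median log2 change of -1.73, and of 14 citric acid cycle genes all were lower, with a median of -1.84; for the first list Ndufb4 changed by -1.69 and for the second Suclg1 by -1.98. Of 34 tested partners of complexes III to V that the symbols do not catch (cytochrome c, further assembly factors and the like), 33 were lower, with a median of -1.25, among them the F1 assembly factor Atpaf1 at -1.52 and Lrpprc, which stabilises mitochondrial mRNAs, at -1.79. With the scaling on cardiomyocyte markers 25 complex I subunits were called lower and 1 higher, and 6 partners lower and 10 higher. The 26 cardiomyocyte markers had a median of -1.45, with 23 lower and 2 higher. Set against these markers in the same library, the members had 0.334, 0.258 and 0.287 reads per marker read in MI+BPD, 0.255, 0.256 and 0.270 in MI, and 0.353, 0.364 and 0.371 in Sham. All 6 infarct libraries were below Sham in this ratio, and the MI+BPD and MI libraries overlapped. The 2 markers called higher in MI, up to a log2 change of 2.42, are part of this ratio and of the scaling on cardiomyocyte markers. The part that the marker levels have in the members' change was not tested.

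Of 6 subunits of complexes III to V encoded in mitochondrial DNA, 5 were called lower in MI than in Sham, with a median of -2.08; mt-Co1 averaged 44970 ± 16620 CPM in MI and 182400 ± 2773 CPM in Sham (SD, n = 3 each; -2.02 ± 0.41, edgeR adjusted p = 0.00171). Reads of these 6 genes were divided by those of the members that are nuclear subunits of the same complexes, here with Cox7a2l. This ratio was 9.53, 8.61 and 8.46 in MI+BPD, 7.89, 7.63 and 8.28 in MI, and 9.54, 9.31 and 8.63 in Sham. MI libraries were below Sham in this ratio without overlap, and MI+BPD overlapped Sham. The list includes genes with far fewer counts than mt-Co1: in Sham mt-Cytb averaged 70900 CPM, but mt-Co3 323 CPM, mt-Co2 157 CPM, mt-Atp6 93.2 CPM and mt-Atp8 2.05 CPM. How reads that also match nuclear copies were counted is not known here, so the count of 5 and the median, which include these 4 genes, are uncertain, and the ratio rests on mt-Co1 and mt-Cytb.

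Of 12 regulators of these genes, 9 were lower in MI than in Sham, none was higher and 3 did not pass, with a median of -1.07. Tfb2m, a mitochondrial transcription factor, changed by -1.17 ± 0.12, Esrrg by -1.60, Esrra by -1.49 and Gabpa, the DNA-binding part of GABP, by -0.66 ± 0.08 (edgeR adjusted p = 1.46e-04). Ppargc1a, which encodes PGC-1alpha, had 96.6, 50.9 and 52.9 CPM in MI+BPD, 30.3, 32.3 and 58.4 CPM in MI, and 165, 176 and 156 CPM in Sham (-2.04 ± 0.30, edgeR adjusted p = 3.14e-04). Nrf1 averaged 14.0 ± 0.805 CPM in MI and 13.4 ± 0.782 CPM in Sham (SD, n = 3 each; 0.07, edgeR adjusted p = 0.567). With library totals, Gabpa turned to 0.07 and Nrf1 was called higher by 0.80 (edgeR adjusted p = 3.30e-04), while Esrra, Esrrg, Tfb2m and Ppargc1a were called lower as before; with the scaling on cardiomyocyte markers 1 of the 12 was called lower and 5 higher. Gabpa shares exon bases with the member Atp5j on the opposite strand (16.3% of the exon bases of Atp5j). Ppargc1a and Nrf1 were added to the genes named here with their values known.

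Treatment was compared next. Between MI+BPD and MI, edgeR called 0 of the 52 members and 0 of 15138 genes (0%); the smallest adjusted p of a member was 0.369. Before adjustment, 24 members had p under 0.05, all with a fitted change above 0, against 8.62% of all genes in that direction. The fitted change was above 0 for 50 of 52 members, against 50.7% of all genes, with a median of 0.51, against 0.00. Only Uqcc2 and Cox7b had all 3 MI+BPD libraries above all MI libraries, against 6.63% of all genes, and for the other 50 the groups overlapped.

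The smallest unadjusted p were those of Uqcrb, Cox7b and Uqcrc2, 2 of which overlap between the groups. Uqcrb, a small subunit of complex III, had 304, 216 and 221 CPM in MI+BPD, 124, 136 and 219 CPM in MI, and 583, 589 and 580 CPM in Sham; the log2 change in MI+BPD against MI was 0.63 ± 0.22 (edgeR unadjusted p = 0.0179, adjusted 0.369). Uqcrc2, a core protein of complex III, had 619, 412 and 434 CPM in MI+BPD, 244, 268 and 425 CPM in MI, and 1090, 1067 and 1167 CPM in Sham (0.64 ± 0.23, edgeR unadjusted p = 0.0214, adjusted 0.369). Cox7b, whose values stand above, changed by 0.65 ± 0.23 (edgeR unadjusted p = 0.0199, adjusted 0.369), with MI 3 just under the lowest MI+BPD library. In each of the 3 genes MI 3 lay within or beside the MI+BPD range, and MI+BPD 1 lay above all the other infarct libraries.

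By role, the median log2 change in MI+BPD against MI was 0.54 for the 35 structural subunits (range 0.29 to 0.66) and 0.26 for the 15 assembly factors (range -0.30 to 0.64). Sdha stood at 0.66 ± 0.26 and Uqcrc1 at 0.65 ± 0.25, the largest beside Cox7b, whereas Uqcc3 stood at 0.06 ± 0.11, Cox19 at 0.06 ± 0.15 and Cox17 at -0.30 ± 0.17; none of these passed. Complex I subunits had a median of 0.54 and the cardiomyocyte markers one of 0.44 in the same comparison. With the scaling on cardiomyocyte markers the median of the members was 0.08, beside -0.48 for all genes. Since both comparisons of MI use the same MI libraries, opposite signs in them are not independent.

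**Figure D4:**
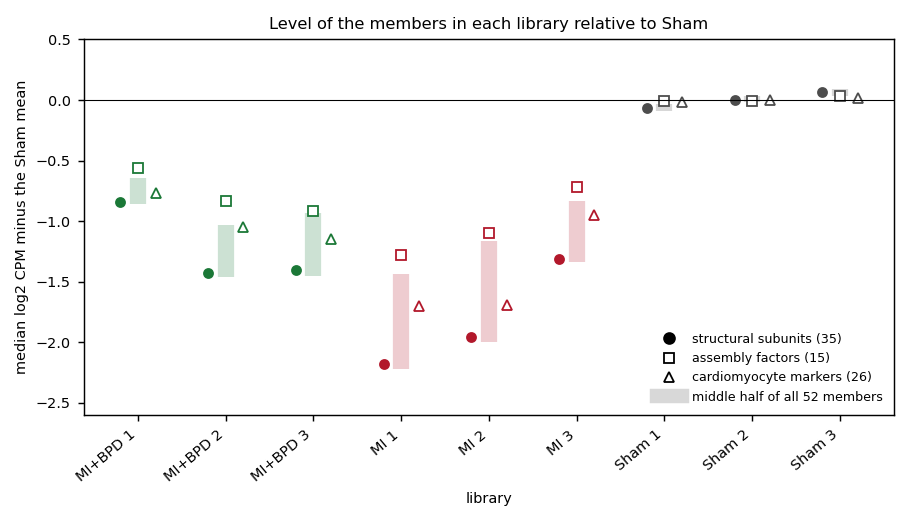
Median log2 CPM minus the Sham mean (y axis) in each MI+BPD, MI and Sham library (x axis), for the 35 structural subunits (filled circles), 15 assembly factors (squares) and 26 cardiomyocyte markers (triangles); shaded bars hold the central 50% of all 52 tested genes. MI+BPD 1 is the highest and MI 1 the lowest infarct library, and MI 3 lies above MI+BPD 2 and MI+BPD 3.

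The spread within the infarct groups was as wide as the gap between them. The median of the 52 members, as log2 CPM minus the Sham mean, was -0.80, -1.35 and -1.35 in MI+BPD, -2.13, -1.83 and -1.22 in MI, and -0.06, 0.00 and 0.06 in Sham. MI 3 was thus above MI+BPD 2 and MI+BPD 3. The cardiomyocyte markers gave the same order of extremes, with medians of -0.77, -1.05 and -1.15 in MI+BPD and -1.70, -1.69 and -0.95 in MI. MI+BPD 1 was the highest of the 6 infarct libraries for 48 of the 52 members, and MI 1 the lowest for 50.

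The calls between MI+BPD and MI hung on which libraries were in the fit and on the method. Without MI 3, edgeR called 35 of 52 members higher in MI+BPD, against 7.29% of all genes, with a median log2 change of 0.80. Without any other single library it called 0, with medians from 0.29 (without MI+BPD 1) to 0.60. Without MI+BPD 1 or without MI 2, 1 member had an unadjusted p under 0.05, and without MI 1 none had. With all 9 libraries, DESeq2 called 0 members (33 at an unadjusted p under 0.05; 0.139% of all genes called higher) and limma-voom, which gives outlying libraries less weight, called 22 higher, against 5.09% of all genes.

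**Figure D5:**
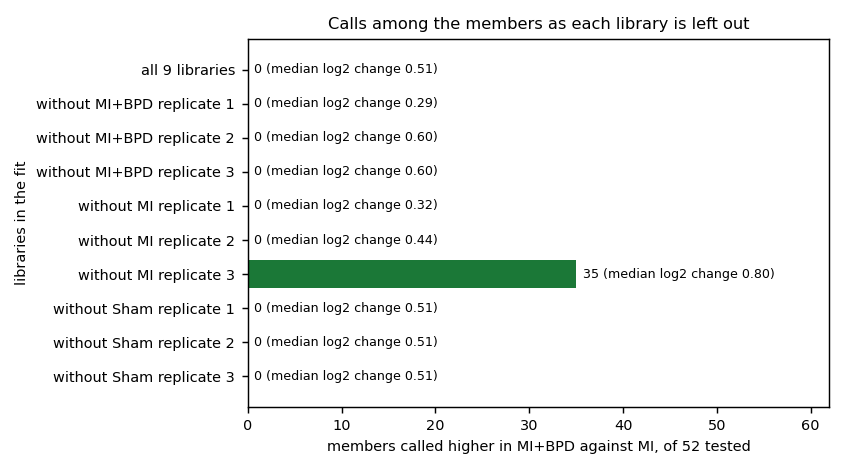
Number of the 52 tested genes called higher in MI+BPD against MI (x axis, from 0; edgeR, adjusted p under 0.05) with all 9 libraries and with each library left out in turn (y axis); the median log2 change is written beside each bar. The count is 35 without MI replicate 3 and 0 in the other 9 fits.

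Set against Sham, MI+BPD hearts had 48 of 52 members lower, none higher and 4 not passing (edgeR, adjusted p under 0.05), against 27.8% of all genes called lower and 31.8% called higher. The median log2 change was -1.14, against 0.04 for all genes, with -1.21 for the structural subunits (35 of 35 lower, -1.33 to -0.92) and -0.79 for the assembly factors (12 of 15 lower). Every MI+BPD library lay below every Sham library for 49 of 52 members, against 32.7% of all genes. The 4 that did not pass were Cox17, Cox19, Cox6b2 and Cox18. Cox18, a low-count gene, had 6.65, 4.77 and 5.94 CPM in MI+BPD, 4.20, 4.97 and 4.97 CPM in MI, and 7.5, 7.00 and 7.24 CPM in Sham, with a log2 change of -0.33 ± 0.15 in MI+BPD against Sham (edgeR adjusted p = 0.0861).

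Subunits stood at the lower end and a few factors near 0, as listed by gene. Sdha changed by -1.33 ± 0.26 in MI+BPD against Sham (edgeR adjusted p = 0.00248), Uqcrc1 by -1.33 ± 0.25 (adjusted p = 0.00206 by edgeR), Atp5c1 by -1.27 ± 0.25 (edgeR adjusted p = 0.00238) and Cox10 by -1.18 ± 0.23 (edgeR adjusted p = 0.00242). At the other end stood Uqcc3 at -0.49 ± 0.11 (edgeR adjusted p = 0.00422), Sdhaf2 at -0.64 ± 0.13 (edgeR adjusted p = 0.00288) and Cox7a2l at -0.66 ± 0.12 (edgeR adjusted p = 0.00155). With library totals Uqcc3 stood at 0.04 (edgeR adjusted p = 0.786), Sdhaf2 at -0.12 (edgeR adjusted p = 0.268) and Cox7a2l at -0.14 (edgeR adjusted p = 0.177), and with the scaling on cardiomyocyte markers all 3 were fitted above 0 without passing. Cox17 had a change of -0.18 ± 0.18 and Cox19 of -0.03 ± 0.15. With library totals 41 of 52 members were lower in MI+BPD, against 9.14% of all genes, and Cox19 was called higher at 0.50 (edgeR adjusted p = 0.00384). With the scaling on cardiomyocyte markers 18 were lower, against 2.58% of all genes, and Cox17, Cox19 and Cox6b2 were called higher.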

How the data were processed

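RNA of 9 left ventricle libraries (3 each of MI+BPD, MI and Sham) was sequenced as 150 bp paired-end reads; per the labels' protocols, RNA had an integrity number above 7. The authors deposited a table of whole-number read counts by gene symbol, with no normalization. STAR and the builds mm10, GRCm39 and mm39 are named in the submitters' processing notes, without a role for each build; for the counting program, annotation and strand setting nothing is given in the sources used here. Genes were matched by symbol, and 55 of the 57 members had a GENCODE M21 entry.

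Counts were fitted in R 4.3.3 with edgeR 4.0.16 (filterByExpr with minimum count 10 and minimum total 15, TMM factors, robust quasi-likelihood model with a term per group over the 9 libraries, 6 residual degrees of freedom), and p was adjusted by Benjamini-Hochberg over 15138 genes, 2-sided, with a threshold of 0.05. The genes tested held 99.9% of all counts. CPM values are TMM-scaled, and log2 CPM used a prior count of 2. The fit was tested on simulated counts with known changes, in a small part of the genes, equally up and down. No simulated library was set apart from its group, so the choice of scaling and the outlying infarct libraries were not probed. Shares of the c subunit genes were compared over libraries by exact permutation; other ratios of counts were not tested. Alternatives were DESeq2 1.42.0, limma 3.58.1 (voom with quality weights), other scalings, other filters, mitochondrial genes left out, only the groups compared, a replicate block, and each library left out. No 2 libraries of a group agreed within sampling noise (chi-square per degree of freedom at least 3.66). Intervals cover counting error only. Reads carry no molecular identifiers, so copies of a molecule cannot be told from separate molecules, and the intervals may be too narrow.

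Same-numbered libraries did not deviate together: of 9 such pairs, 2 correlated above 0.1 (r from -0.16 to 0.19), so the numbers were not taken as pairs. Members given in every library are the extremes of each class in MI against Sham, the complex II and c subunits, members not called lower there, and the 3 of smallest p in MI+BPD against MI; Cox18 was added with its values known. The members, the gene lists and the naming rule were chosen with earlier results of these data known. Left out by the rule are 10 pseudogene symbols with 409 counts in all.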

Additional observations from a re-analysis of the deposited data

How the results depend on the processing

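Values are log2 changes. With median-ratio or upper-quartile factors, DESeq2, other filters, mitochondrial genes left out or only the groups compared, no count of member calls moved by over 1.5 times and no member median by over 0.29, the spread between replicates. Library totals gave member medians of -0.95 (MI against Sham) and -0.63 (MI+BPD against Sham). Scaling on cardiomyocyte markers gave -0.42 in MI and -0.32 in MI+BPD against Sham, and 0.08 between MI+BPD and MI, with 29 members called lower in MI and 18 in MI+BPD against Sham. Higher genes were 53.6% of all called in MI against Sham, 85.6% with library totals and 95.2% with the marker scaling. Limma-voom called 22 members in MI+BPD against MI. With the replicate block edgeR called 49 members in MI and 48 in MI+BPD against Sham, and 0 between MI+BPD and MI, so pairing changed none of these counts. Leaving out each library gave medians of -1.97 to -1.49 in MI and -1.37 to -1.06 in MI+BPD against Sham, with 49 and 48 to 49 members called, and 0.29 to 0.80 between MI+BPD and MI, with 0 to 35 called.

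Of the 52 tested members, those fitted above 0 in MI against Sham numbered 2, but 5 with library totals and 16 with the marker scaling; in MI+BPD against Sham 1, 5 and 13; and in MI+BPD against MI 50, 45 and 34. For the members given in every library by the naming rule alone, cases were counted over all combinations of gene, comparison and alternative. With the sign kept, 31 newly passed and 14 no longer passed. Another 38 changed sign, counted whether or not their call changed too, as follows. With library totals, MI against Sham gave 0.18 for Uqcc3 and 0.64 for Cox19; MI+BPD against MI gave -0.03 for Sdhaf4 and -0.14 for Uqcc3 and Cox19; MI+BPD against Sham gave 0.04 for Uqcc3, 0.33 for Cox17 and 0.50 for Cox19. With the marker scaling, MI against Sham gave Sdhaf1 0.12, Sdhaf4 0.33, Uqcc3 0.76, Cox7a2l 0.41, Atp5g2 0.07 and Cox19 1.2. MI+BPD against MI then gave Sdhaf1 -0.12, Sdhaf4 -0.28, Uqcc3 -0.41, Uqcr10 -0.06, Cox7a2l -0.23, Atp5d -0.04, Atp5g2 -0.16 and Cox19 -0.38. MI+BPD against Sham gave Sdhaf1 0.00, Sdhaf4 0.06, Uqcc3 0.35, Cox17 0.64, Cox7a2l 0.18 and Cox19 0.81. In MI+BPD against MI, Uqcc3 was -0.02 with limma-voom, and in MI+BPD against Sham, Cox19 was 0.01 with no filter. With each library left out, Cox17 ran from -0.01 to 0.22 and Cox19 from -0.26 to 0.06 in MI against Sham; Uqcc3 from -0.05 to 0.13 and Cox19 from -0.09 (0.00 without MI+BPD 1) to 0.23 in MI+BPD against MI; and Cox19 from -0.10 to 0.04 and Cox6b2 from -0.11 to 0.47 in MI+BPD against Sham. The cause of these changes of sign was not tested beyond the shift of all genes that the scalings bring. Depth limits Cox6b2, Cox17 and Cox18, which have the fewest counts among the tested members.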
